A study of Mus musculus with 8 samples.

Results

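The proteasome genes were taken as every row of the array whose only gene symbol starts with Psma, Psmb, Psmc, Psmd, Psme, Psmf or Psmg, with the brightest row standing for a gene. This gave 42 genes, each with 1 row, among 14860 genes with a symbol of their own on 16755 rows. By role they were 5 alpha and 5 beta subunits of the core, 3 immunoproteasome subunits, 1 thymoproteasome subunit, 6 ATPases and 10 other subunits of the cap, 3 assembly chaperones of the cap, 3 activators, 1 inhibitor and 3 assembly chaperones of the core. The other 2, Psmc3ip and Psme3ip1, share a symbol stem without being subunits. A further 4 rows carry a proteasome symbol beside another gene's, and Psma4, Psmd1 and Psme2 were therefore not analysed here, nor were Psma5, Psmb3, Psmb5 and Psmg4.

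The samples were gastrocnemius (calf muscle) RNA from male C57BL/6 mice aged 12 weeks. Controls ate standard chow for 5 weeks, and the treated mice ate the same chow containing 0.27% ursolic acid, a triterpenoid of fruit peel. Each of the 4 control and 4 ursolic acid samples pooled RNA of 2 mice and was measured on its own array, so a value is a mean over mice, and with so few arrays only large or very even differences can pass a test. The groups follow the titles and the treatment field, but the free-text description names the other diet for 4 of the 8 samples: control samples 2 and 4 and ursolic acid samples 1 and 3. Control sample 1 stood apart, with a mean Spearman correlation of 0.977 with the other arrays against 0.983 to 0.986 in the rest. Muscle fibre genes marked the tissue: all 8 measured of 12 listed, among them Acta1 and Ckm, had control means from 9.02 upward, where array medians were 5.55 to 5.61. In pooled whole muscle, fewer cells of a type and less RNA per cell cannot be told apart.

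The proteasome is the protease that degrades proteins tagged with ubiquitin. Its core is a barrel of alpha subunits, which form the gate, and beta subunits, of which a few carry the active sites, and its cap binds ubiquitin chains, unfolds the substrate with a ring of ATPases and feeds it into the core. In immune cells, and in other cells under interferon, Psmb8, Psmb9 and Psmb10 replace the active beta subunits Psmb5, Psmb6 and Psmb7 and change the peptides that reach class I molecules. In skeletal muscle the pathway degrades myofibrillar proteins, and its genes are known to be induced together in atrophy. The study asked what dietary ursolic acid does to muscle mRNA, and here that question is put to the proteasome.

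No proteasome gene passed the test between the diets. By limma, with adjustment over all rows, 0 of 42 passed an adjusted p of 0.05, where 0% of all rows did, and the smallest adjusted p of a proteasome gene was 0.666. At an unadjusted p of 0.05 there was 1 of the 42, Psma2, which was higher with ursolic acid, or 2.38% of the genes where 7.07% of all rows reached it (4.08% higher and 3.00% lower). The diets did not overlap in 3 genes, Psma2, Psmc4 and Psme3ip1, all higher with ursolic acid, or 7.14% of the genes where 4.49% of all rows did not overlap (2.66% higher and 1.83% lower). The first share lay below that of all rows, and the second above it, resting on 3 genes of which Psme3ip1 is not a subunit.

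The differences were small in both directions. They ran from −0.21 for Psmg1 to 0.22 for Psmb11 on the log2 scale, with a median of 0.033, against a median of −0.011 over all rows. Brighter rows tended to have higher differences, and among rows that averaged 8 or more on the log2 scale the median was 0.039 for the 27 proteasome genes and 0.024 for all 1396 rows. Of the 42 genes 27 had a higher mean with ursolic acid, 64.3% against 45.5% of all rows. Among rows averaging 8 or more the shares lay nearer, at 70.4% of the 27 proteasome genes and 62.4% of all 1396 rows. The count of 27 became 23 after quantile normalization, where 46.9% of all rows had a higher mean, and 34 with arrays centred on their medians, where 52.4% did. The 95% interval of the difference held 0 in 41 genes, and in 30 genes it lay within a 1.2-fold change either way. These 30 held all 5 beta subunits of the core, 5 of 6 ATPases and all 10 other subunits of the cap, but 0 of the 3 core assembly chaperones. The interval lay within a 1.5-fold change in 41 genes, the exception being Psma3.

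**Figure D1:**
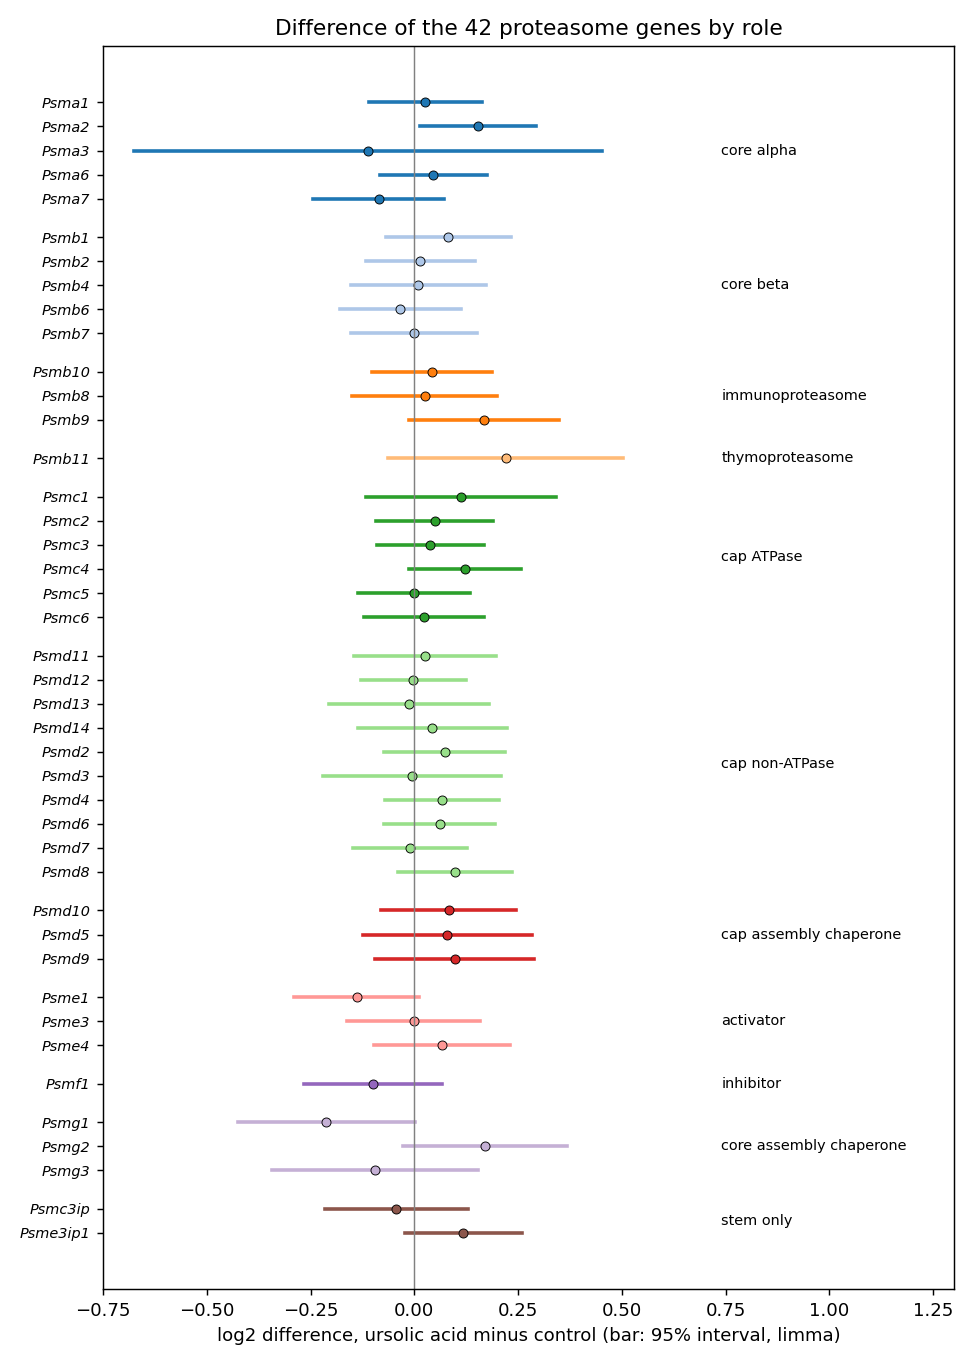
Each point is the log2 difference of a proteasome gene, ursolic acid minus control, and each bar its 95% interval by limma with 4 arrays per diet, coloured and grouped by role. Only the interval of Psma2 lies wholly above 0, and that of Psma3 is the widest.

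**Figure D2:**
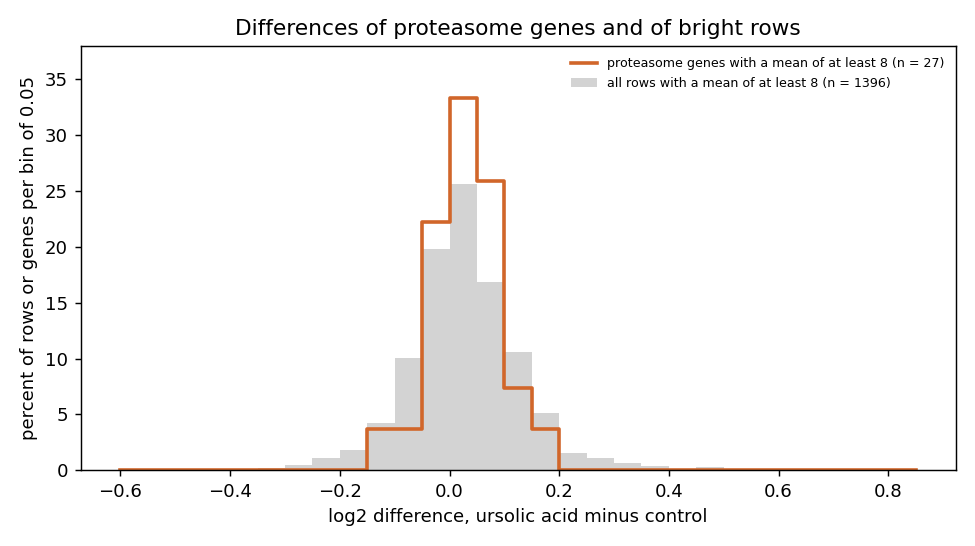
The histogram gives the percent of rows per bin of 0.05 in the log2 difference, in grey for all 1396 rows that averaged 8 or more and as an orange line for the 27 proteasome genes at that level. The line covers the centre of the grey distribution, with medians of 0.039 and 0.024.

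The promoters of the 4 genes with the smallest unadjusted p by limma are shown, as the genes that came nearest to the test's threshold. The sequences are RefSeq's for build GRCm38.p6, from 250 bases before to 50 after the start of the gene, 5′ to 3′ on the gene's strand. Psma2 lies at chr13:14612992-14613291 on the plus strand, Psmg1 at chr16:95990911-95991210 on the minus strand, Psmb9 at chr17:34187281-34187580 on the minus strand and Psme1 at chr14:55578244-55578543 on the plus strand. Capitals mark matches to the motifs named after them.
Psma2: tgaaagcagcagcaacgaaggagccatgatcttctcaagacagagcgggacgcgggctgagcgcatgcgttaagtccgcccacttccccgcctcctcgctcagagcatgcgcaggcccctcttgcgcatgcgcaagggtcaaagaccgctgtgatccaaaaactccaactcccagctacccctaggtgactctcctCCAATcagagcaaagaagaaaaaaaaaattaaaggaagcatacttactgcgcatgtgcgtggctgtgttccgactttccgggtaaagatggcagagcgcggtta
Psmg1: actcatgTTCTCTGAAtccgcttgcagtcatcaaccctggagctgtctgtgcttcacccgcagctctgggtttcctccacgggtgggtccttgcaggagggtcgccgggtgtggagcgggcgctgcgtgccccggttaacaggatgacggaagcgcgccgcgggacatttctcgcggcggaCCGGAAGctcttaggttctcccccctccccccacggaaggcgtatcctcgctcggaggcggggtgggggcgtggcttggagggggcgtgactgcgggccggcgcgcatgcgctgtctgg
Psmb9: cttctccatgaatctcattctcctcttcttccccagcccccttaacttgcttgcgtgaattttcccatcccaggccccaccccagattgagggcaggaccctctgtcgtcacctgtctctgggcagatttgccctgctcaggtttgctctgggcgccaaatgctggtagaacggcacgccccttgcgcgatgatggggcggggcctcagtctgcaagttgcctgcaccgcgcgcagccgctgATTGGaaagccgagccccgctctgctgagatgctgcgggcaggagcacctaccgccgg
Psme1: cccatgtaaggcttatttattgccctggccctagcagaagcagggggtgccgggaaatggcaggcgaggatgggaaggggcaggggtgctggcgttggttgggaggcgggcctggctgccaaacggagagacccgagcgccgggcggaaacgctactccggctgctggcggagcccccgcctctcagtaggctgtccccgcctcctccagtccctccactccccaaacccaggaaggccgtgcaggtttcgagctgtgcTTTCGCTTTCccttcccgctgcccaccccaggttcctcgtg

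In these promoters 5 motifs were searched on both strands, each counted by itself, and no matches overlapped in the 4 shown. The CCAAT box (CCAAT) begins 54 bases before the start of Psma2 and, on the other strand, 8 bases before that of Psmb9. The ETS site (CCGGAAG) begins 69 bases before the start of Psmg1, which also holds a gamma interferon activation site (TTCNNNGAA) beginning 243 bases before it. In Psme1 the core of an interferon-stimulated response element (GAAA, any 2 bases, GAAA) begins 9 bases after the start on the other strand. None of the 4 windows holds the core of the antioxidant response element (TGACNNNGC), the motif bound by the NRF factors that are known to drive proteasome genes.

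Promoters were listed for 35 of the 42 genes, 38 promoters in all. The ETS site was in 17 of these 38, or 44.7%, among them those of Psmc1, Psmc2, Psmc6, Psmd2, Psmd6, Psmd11, Psmd12, Psme4 and Psmg1, against 8.86% of all 32817 promoters and 11.6% of the 21229 of protein-coding genes. The other motifs were in shares nearer to those of all promoters: 39.5% against 37.4% for the CCAAT box, 13.2% against 12.4% for the antioxidant core, 7.89% against 8.29% for the gamma interferon site and 7.89% against 3.43% for the interferon-stimulated core. The 16 genes with an ETS site had a median log2 difference between diets of 0.036, and the 19 without it one of 0.043. These are matches of letters, and no binding was measured.

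Among the alpha subunits of the core, Psma2 had the smallest p of all 42 genes. Its log2 values were 10.28, 10.26, 10.15 and 10.24 in control samples 1 to 4 and 10.41, 10.43, 10.30 and 10.40 in ursolic acid samples 1 to 4. All 4 ursolic acid arrays lay above all 4 controls, by a narrow margin between ursolic acid sample 3 and control sample 1. The means were 10.23 ± 0.06 (SD, n = 4) and 10.38 ± 0.06, a 1.11-fold difference (0.15 ± 0.06 SE on the log2 scale), with an unadjusted p of 0.0343 and an adjusted p of 0.666 by limma. Without control sample 1 the log2 difference of Psma2 was 0.17. The other alpha subunits differed by less: Psma1 by 0.026, Psma6 by 0.046 and Psma7 by −0.086 on the log2 scale, with standard errors of 0.058 to 0.071. Psma3 read only 3.03 to 4.33 in control and 3.11 to 3.85 with ursolic acid, and its difference of −0.11 had a standard error of 0.25. Its mean in each diet was the lowest of the 42 and its values the most scattered, and no detection call is given for the rows.

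The 5 beta subunits of the core had differences from −0.034 to 0.082, and none passed. Psmb6, the constitutive subunit with caspase-like activity, read 10.94, 10.95, 10.95 and 10.86 in control samples 1 to 4 and 11.00, 10.91, 10.83 and 10.83 in ursolic acid samples 1 to 4. The diets overlapped, and the difference was −0.034 (95% interval −0.18 to 0.11). Psmb7, the constitutive subunit with trypsin-like activity, read 10.58, 10.74, 10.78 and 10.77 in control and 10.66, 10.71, 10.76 and 10.74 with ursolic acid. Its means were 10.72 in each diet, with a difference of −0.0015 (95% interval −0.15 to 0.15), and its lowest value was that of control sample 1. Psmb1, a beta subunit without an active site, had the smallest p of this group. It read 9.62, 9.82, 9.76 and 9.69 in control and 9.84, 9.75, 9.76 and 9.86 with ursolic acid, with a difference of 0.082 ± 0.067 (SE) and overlapping diets. Without control sample 1, its lowest array, the difference of Psmb1 was 0.047. Psmb2 and Psmb4, also without active sites, differed by 0.014 and 0.0091. Over the 10 core genes 6 had higher means and 4 lower, with a median difference of 0.011. Of rows averaging 8 or more, 62.4% had a higher mean.

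In the immunoproteasome, the 3 inducible subunits had higher means with ursolic acid, as 45.5% of all rows did, and none passed. Psmb9, the inducible counterpart of Psmb6, read 6.94, 7.08, 7.21 and 7.26 in control samples 1 to 4 and 7.36, 7.32, 7.20 and 7.28 in ursolic acid samples 1 to 4. Every ursolic acid array was above the control mean, but ursolic acid sample 3 lay below control samples 3 and 4. The difference was 0.17 ± 0.08 (SE), or 1.12-fold, with an adjusted p of 0.735 by limma. Without control sample 1, its lowest array, the difference of Psmb9 was 0.11.

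Psmb8, the inducible counterpart of Psmb5, read 6.24, 6.55, 6.46 and 6.33 in control and 6.44, 6.36, 6.41 and 6.47 with ursolic acid. Its ursolic acid values lay inside the range of the controls, with a difference of 0.025 (95% interval −0.15 to 0.20) that was −0.026 without control sample 1. Psmb10, the inducible counterpart of Psmb7, read 6.27, 6.41, 6.36 and 6.36 in control and 6.43, 6.47, 6.35 and 6.31 with ursolic acid. The diets overlapped, and the difference was 0.043 (95% interval −0.10 to 0.19). Control sample 1 was the lowest of the 8 arrays in all 3 genes. The median difference of the immunoproteasome was 0.043, beside 0.011 for the core and 0.041 for the cap, and without control sample 1 these medians were 0.015, 0.0065 and 0.030. No difference between these medians was tested.

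The immunoproteasome is prominent in leukocytes, and marker lists of these cells were read beside it. Of 16 listed genes of macrophages and other leukocytes 15 were measured. All 15 had higher means with ursolic acid, as 45.5% of all rows did, with a median difference of 0.34. By limma 11 of the 15 reached an unadjusted p of 0.05, where 4.08% of all rows did so with a higher mean, and 0 passed an adjusted p of 0.05. The list was chosen with earlier results of these data known, so its count is no independent comparison with that share. The mean log2 value over this list was 5.79 to 6.03 in control arrays and 6.17 to 6.38 in ursolic acid arrays, and the log2 of its summed signal 9.88 to 10.15 and 10.34 to 10.60. The lowest of these markers, Adgre1, had a control mean of 4.79, below the array medians of 5.55 to 5.61, and no detection call is given. Ctss, the gene of cathepsin S, had the smallest p of the list and differed by 0.71, with an adjusted p of 0.0845 by limma. Cd74 and Tyrobp had the same adjusted p, and the other markers of the list lay above 0.10, which 0.119% of all rows passed. Of 5 listed lymphocyte genes 4 were measured, 3 with higher means and 0 at an unadjusted p of 0.05, with a median difference of 0.076. All 5 listed fibroblast genes had higher means, with a median difference of 0.086, and 1 of them, the matrix gene Lum, reached an unadjusted p of 0.05 with a difference of 0.61 and no overlap between diets. Of the 4 listed endothelial genes 0 had a higher mean, with a median difference of −0.091. Of the 4 listed adipocyte genes 2 did, with a median of 0.023, and of the 8 measured fibre genes 4 did, with a median of −0.0012. None in these lists reached an unadjusted p of 0.05 by limma. The part of any of these cell types in the values of Psmb8, Psmb9 and Psmb10 was not tested.

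Class I antigen processing, the pathway that the immunoproteasome feeds, showed no gene at an unadjusted p of 0.05 among 10 measured of 14 listed, with 7 higher means and a median difference of 0.038. Means were higher in 45.5% of all rows and in 62.4% of rows averaging 8 or more. Tap1, the peptide transporter chain encoded beside Psmb9, differed by 0.053 and its partner Tap2 by −0.10. B2m, the light chain of class I molecules, differed by 0.092, and Pdia3, a chaperone of class I loading, by 0.13. Irf1, a transcription factor that induces the immunoproteasome under interferon, differed by −0.030. Psmb11, the beta subunit of thymic epithelium, read 4.61, 4.21, 4.17 and 4.29 in control and 4.68, 4.31, 4.77 and 4.41 with ursolic acid. Its diets overlapped, and its difference of 0.22 ± 0.13 (SE), the most positive of the 42, came at low values.

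**Figure D3:**
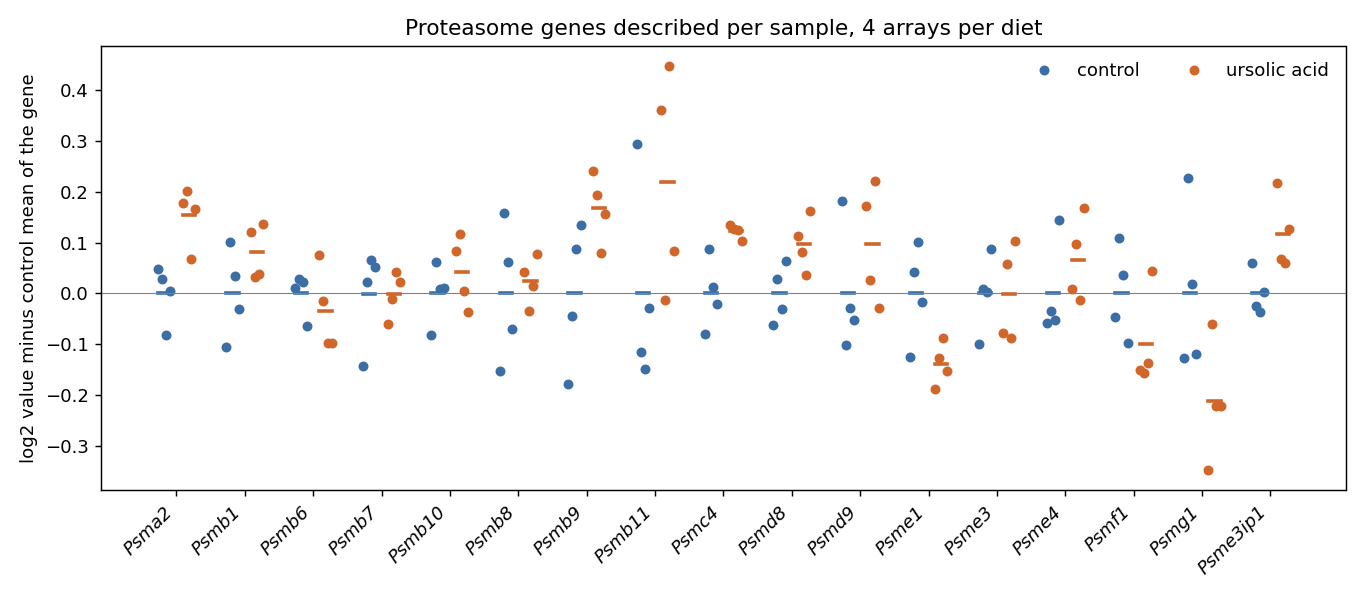
Each point is an array's log2 value minus the control mean of that gene, with 4 control arrays in blue and 4 ursolic acid arrays in orange per gene, in sample order from left to right, and short lines at the group means. The orange points lie wholly above the blue ones in Psma2, Psmc4 and Psme3ip1. Control sample 1 is the leftmost blue point, and the lowest in Psmb1, Psmb7, Psmb8, Psmb9, Psmb10, Psmc4, Psmd8, Psme1, Psme3, Psme4 and Psmg1.

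In the ATPase ring of the cap, which unfolds substrates, 5 of 6 genes had higher means and none passed. Among rows averaging 8 or more, 62.4% had a higher mean. Psmc4 read 8.35, 8.52, 8.45 and 8.41 in control samples 1 to 4 and 8.57, 8.56, 8.56 and 8.54 in ursolic acid samples 1 to 4. Its ursolic acid arrays were nearly equal and all above the controls, though only just above control sample 2. The means were 8.43 ± 0.07 (SD, n = 4) and 8.56 ± 0.01, a 1.09-fold difference (0.12 on the log2 scale), with an unadjusted p of 0.0717 and an adjusted p of 0.741 by limma. Without control sample 1 the log2 difference of Psmc4 was 0.096. Psmc1 differed by 0.11 with a wider standard error of 0.10, having read 8.15 in control sample 1 and 8.44 to 8.65 in the other 7 arrays. Psmc2, Psmc3 and Psmc6 differed by 0.049, 0.039 and 0.023, and Psmc5 by −0.00023.

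The other subunits of the cap hold the ubiquitin receptors, the scaffold and the deubiquitinase. Psmd8, a subunit of the lid, had the smallest p of these 10 and read 8.86, 8.95, 8.89 and 8.99 in control and 9.04, 9.01, 8.96 and 9.09 with ursolic acid. Only ursolic acid sample 3 overlapped the controls, and the difference was 0.098 ± 0.062 (SE), with an adjusted p of 0.804 by limma. Without control sample 1 the difference of Psmd8 was 0.078. Psmd4, a ubiquitin receptor, differed by 0.067, Psmd2, a scaffold subunit, by 0.074, and Psmd14, which removes the ubiquitin chain, by 0.044. Psmd6 and Psmd11, subunits of the lid, differed by 0.061 and 0.025. Psmd3, Psmd7, Psmd12 and Psmd13, also of the lid, differed by −0.0068, −0.011, −0.0023 and −0.012. Over the 16 genes of ATPases and other cap subunits, 11 means were higher and 5 lower, and all 16 intervals held 0. In rows averaging 8 or more, 62.4% of means were higher.

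The assembly factors differed in both directions. Psmg1, a chaperone that builds the alpha ring with Psmg2, read 7.83, 8.19, 7.98 and 7.84 in control samples 1 to 4 and 7.61, 7.90, 7.74 and 7.74 in ursolic acid samples 1 to 4. All 4 ursolic acid arrays lay below the control mean, and ursolic acid sample 2 lay above control samples 1 and 4. The difference was −0.21 ± 0.10 (SE), or 0.863 of control, with an unadjusted p of 0.0506 and an adjusted p of 0.711 by limma. Psmg2, its partner, differed by 0.17 ± 0.09 (SE) the other way, from 6.66 ± 0.13 (SD, n = 4) to 6.83 ± 0.13, with an adjusted p of 0.751, and Psmg3 differed by −0.095. The 3 chaperones of the cap all had higher means, as 45.5% of all rows did. Among them Psmd9 read 5.91, 5.63, 5.70 and 5.68 in control and 5.90, 5.75, 5.95 and 5.70 with ursolic acid, with a difference of 0.097 ± 0.086 (SE). Only control sample 1 lay within the range of the ursolic acid arrays. Control sample 3 lay below ursolic acid sample 4 by less than the rounding of these values. Psmd5 and Psmd10 differed by 0.079 and 0.082.

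Of the activators, which open the core in place of the cap, Psme1 was lower with ursolic acid and none passed. Psme1, the alpha chain of the interferon-inducible activator PA28, read 8.67, 8.84, 8.90 and 8.78 in control samples 1 to 4 and 8.61, 8.67, 8.71 and 8.65 in ursolic acid samples 1 to 4. Only control sample 1 lay within the range of the ursolic acid arrays. The difference was −0.14 ± 0.07 (SE), or 0.908 of control, with an unadjusted p of 0.0672 and an adjusted p of 0.735 by limma, and without control sample 1 it was −0.18.

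Psme3, the nuclear activator PA28 gamma, read 8.47, 8.58, 8.57 and 8.66 in control and 8.49, 8.63, 8.48 and 8.67 with ursolic acid. The 4 arrays described as treated (samples 2 and 4 of each diet) read 8.58 to 8.67 and the other 4 read 8.47 to 8.57, while the difference between diets by title was −0.0015 (95% interval −0.16 to 0.16). Psme4, the activator PA200, read 8.99, 9.01, 8.99 and 9.19 in control and 9.05, 9.14, 9.03 and 9.21 with ursolic acid, with overlapping diets and a difference of 0.066. Psmf1, the proteasome inhibitor PI31, read 5.55, 5.70, 5.63 and 5.49 in control and 5.44, 5.44, 5.46 and 5.64 with ursolic acid. Its difference was −0.10 ± 0.07 (SE), and ursolic acid sample 4 lay among the controls.

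Neither of the stem genes that are no subunits passed. Psme3ip1, which binds the nuclear activator, read 6.44, 6.36, 6.34 and 6.38 in control and 6.60, 6.45, 6.44 and 6.51 with ursolic acid. The diets did not overlap, by a gap smaller than the rounding of these values between control sample 1 and ursolic acid sample 3, and the difference was 0.12 ± 0.06 (SE), with an adjusted p of 0.769 by limma. Psmc3ip, a factor of meiotic recombination, differed by −0.044.

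Around the proteasome, 20 of 32 listed symbols of ubiquitin and proteasome partners were measured, and 15 had higher means. A higher mean was found in 45.5% of all rows and in 62.4% of rows averaging 8 or more. The mean log2 value over these partners was 8.11 to 8.18 in control arrays. An unadjusted p of 0.05 was reached by 2 of the 20, both higher, where 4.08% of all rows did so with a higher mean and 7.07% in either direction, and an adjusted one by 0. Nploc4, a cofactor of the unfolding ATPase p97, differed by 0.19 ± 0.06 (SE) with no overlap between diets and an adjusted p of 0.501 by limma. Nfe2l2, the antioxidant regulator NRF2, differed by 0.20 ± 0.07, with an adjusted p of 0.616. Usp14, a deubiquitinase of the cap, differed by 0.14, and Ufd1, the partner of Nploc4, by 0.083. Nfe2l1, the NRF1 factor that raises proteasome genes when the proteasome is inhibited, differed by −0.028, and Pomp, the maturation factor of the core, by 0.038. The median over these 20 genes was 0.056.

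Across the arrays, the spread of proteasome genes within a diet was small. Their median pooled SD (the root of the mean variance of both diets) was 0.079 on the log2 scale against 0.125 over all rows. Among rows averaging 8 or more it was 0.066 for the 27 proteasome genes and 0.084 for all 1396. Control sample 1 gave the lowest of the 8 values in 23 of the 42 genes, where it did so in 3337 of all 16755 rows. The median deviation of the 42 genes from their own means was −0.093 in that sample, −0.020 to 0.020 in the other controls and 0.0017 to 0.040 in the ursolic acid samples. By role its median deviation was −0.012 in the core, −0.096 in the cap and −0.16 in the immunoproteasome. Without it the median difference of the 42 genes was 0.017, and 5 genes reached an unadjusted p of 0.05, Psma2 and Psmb11 higher and Psme1, Psmg1 and Psmg3 lower, where 7.16% of all rows did. The median was 0.050 without control sample 4 and 0.027 to 0.046 without any other sample.

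**Figure D4:**
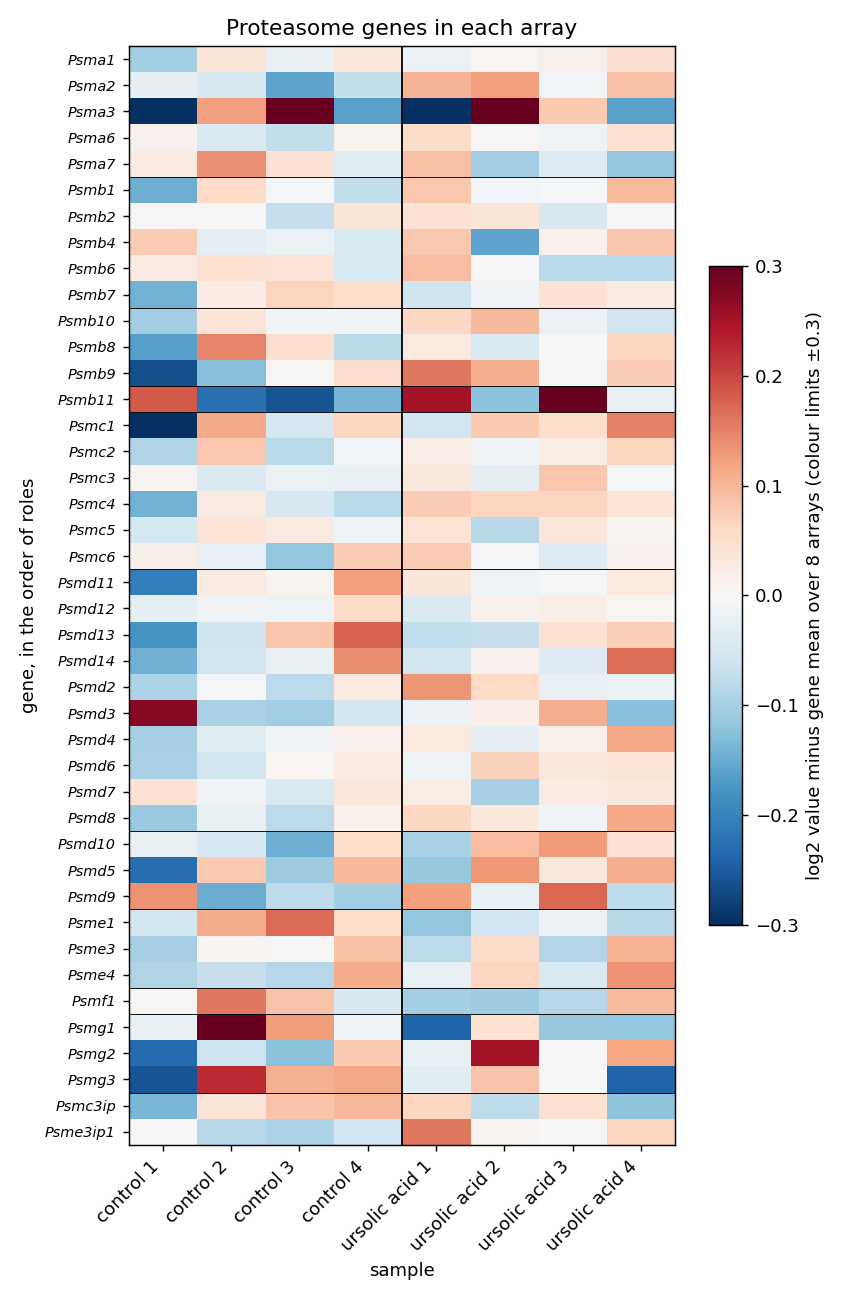
Colours give each array's log2 value minus the gene's mean over the 8 arrays, for the 42 proteasome genes in the order of their roles, with thin lines between roles and a thick line between diets. The column of control sample 1 holds the lowest value of 23 of the 42 genes.

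Grouping the arrays by the free-text description in place of the title gave 5 of 42 genes at an unadjusted p of 0.05, where 12.5% of all rows reached it, and none after adjustment. They were Psmc1, Psmd5, Psme3 and Psmg2, higher in samples described as treated, and Psmd9, lower in them. None of these 5 was the gene found by title, Psma2.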

How the data were processed

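Muscle RNA was labelled with biotin and hybridised to 1-colour arrays. The submitters' processing notes name RMA (background correction, normalization between arrays, summary of probes) and build mm9 for the deposited log2 values; software version and filters are not given there. Base 2 was inferred from the range. Rows were named by the platform annotation (14996 of 16755 carry 1 symbol, 1019 several, 740 none), and all 42 members matched RefSeq GRCm38.p6 by gene number.

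The diets were compared row by row in R 4.3.3 with limma 3.58.1 (lmFit, eBayes without trend, no covariate; two-sided), adjusting by Benjamini-Hochberg across the 16755 rows, threshold 0.05. The script was tested on simulated data. P-values, standard errors and intervals rest on the spread between these pools, not between mice. In each row eBayes moderated that spread toward a value estimated from all 16755 rows, while the SDs given are unmoderated. A standard error can therefore differ from the one that a gene's SDs would give. Moderation made p larger for some genes, as for Psma2 and Psmc4, and smaller for others, as for Psmg1.

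The members and lists were chosen with earlier results of these data known. Values per sample are given for the immunoproteasome and constitutive counterparts, the Psme genes, genes at an unadjusted p of 0.05 and the smallest p of each other role. Lists name up to 4 genes by p; Acta1, Ckm, Adgre1, Irf1, Nfe2l1 and Pomp were named after their values were seen. No arrays were identical. Alternatives covered normalization, low rows, moderation, array weights, the replicate number as a block, each sample left out and the description.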

Additional observations from a re-analysis of the deposited data

Results flagged for a closer look

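Each proteasome gene was examined within each diet, 84 sets of 4 values in all, for a value standing well away from its group, which happens by chance in roughly 1 of 20 sets. This was found in 4 of the 84 sets, a share near that given by chance. As a share of the group range, the distance to the closest neighbour was 0.876 for Psmd3, a lid subunit, where control sample 1 read 7.34 and the other controls 6.96 to 7.01. It was 0.925 for Psmd7, also of the lid, where ursolic acid sample 2 read 9.83 and the others 9.95 to 9.96. For Psme4, the activator PA200, it was 0.889, control sample 4 reading 9.19 and the others 8.99 to 9.01. For Psmf1, the inhibitor PI31, it was 0.902, ursolic acid sample 4 reading 5.64 and the others 5.44 to 5.46. The 4 values came from 4 different arrays.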

How the results depend on the processing

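No proteasome gene passed an adjusted p of 0.05 in any of the 20 alternatives run, including the fits within each description class, which were chosen after seeing the data. Over all rows the count at that threshold, 0, became 27 when the dimmer rows (under the median level) were dropped, 12 with a variance trend and robust moderation, 1 without moderation and 23 with array weights, and 20 passed at 0.10. The 1185 rows at an unadjusted p of 0.05 became 1800 in samples with concordant labels and 2098 when grouped by description. The count of proteasome genes at an unadjusted p of 0.05 was 1 in the main fit, where 7.07% of all rows reached it. With the share of all rows in brackets, it became 2 after quantile normalization (Psme1 and Psmg1, 7.28%). It was 2 of 38 with dim rows left out (10.2%), 4 with trend and robust moderation (7.51%) and 5 without moderation (7.2%). With array weights it was 5 (8.79%), and with the description as a covariate 3 (8.7%). In samples with concordant labels it was 2 (10.7%), and when grouped by description 5 (12.5%). Within either description class it was 0 (6.69% in samples described as treated, 4.82% in those described as untreated). The count was 0 to 5 when each sample was left out (5.52% to 8.59% of all rows), with 0 without control sample 3 or ursolic acid samples 1 or 4. With the replicate number as a block it was 3 (Psma2, Psmg1 and Psmg2), where 8.82% of all rows reached that p. Same-numbered samples deviated together at correlations of 0.018 to 0.186, but not every sample correlated best with its own number. Other pairs ran from −0.210 to 0.198. Pairs across diets within a description class correlated at −0.022 to 0.198, and pairs of different classes at −0.210 to 0.029. What samples of a number or class have in common was not tested. In samples with concordant labels the median differences of the core and the cap were 0.047 and 0.099. The cause was not tested for any of these.

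Of 338 values of the 17 genes given per sample, 310 kept their direction. Those that turned had main differences near 0 or came from the description. Psmb7 was 0.015 with arrays centred, 0.044 with concordant labels, 0.046 by description and 0.029 in samples described as untreated. Psme3 was 0.015, 0.128 and 0.130 in the first 3 of these and 0.032 in samples described as treated. Psmb8 was −0.021 with array weights and −0.024 in samples described as treated. With concordant labels Psmb11 was −0.036 and Psmd9 −0.078. By description Psmb11 was −0.256, Psmd9 −0.175, Psme1 0.011, Psmf1 0.049, Psmg1 0.126 and Psme3ip1 −0.033. Leaving out 1 sample gave −0.049 to 0.021 for Psmb7, −0.026 to 0.078 for Psmb8 and −0.036 to 0.028 for Psme3. Signal over background is not given per row, so which of the dim genes (Psma3, Psmb11) were detected is unknown.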
